A study of Mus musculus with 4 samples.

Results

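The 10 genes described here mark follicular helper T cells: the cytokine genes Il21 and Il4, the homing receptor gene Cxcr5, the surface protein gene Cd200, the secreted protein gene Sostdc1, and the transcriptional regulators Bcl6, Ascl2, Pou2af1, Tox and Maf. They are 10 of the 12393 genes that probe sets of the array name alone, and were followed through every probe set annotated to a single one of them, 15 of 22690 in all. Ascl2 had 3 probe sets, Bcl6, Sostdc1 and Tox had 2 each, and the other 6 genes had 1 each. No probe set with several gene symbols held a member. RNA from CD4 cells was hybridised to 4 Affymetrix MOE430A arrays, 2 from sanroque mice (san/san) and 2 from wild type mice (+/+). Sanroque mice are homozygous for a recessive variant induced by ENU in C57BL/6 males, which lies in Rc3h1, the gene of the RNA-binding protein Roquin-1, and their pedigree was picked for antinuclear autoantibodies. The labels give neither the age, sex and number of mice behind each array nor the gate of the CD4 cells. Nor do they say that the 2 arrays of a group came from different mice, so the p-values may rest on technical spread alone. The headers of both number 1 arrays describe sorted T cells.

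Follicular helper T cells are the CD4 cells that enter B cell follicles and sustain germinal centres. Bcl6, a transcriptional repressor, directs the programme; Cxcr5 answers the follicular chemokine Cxcl13, and secreted Il21 and Il4 act on the B cells. Sanroque mice are known for an excess of these cells and for spontaneous germinal centres, so the comparison of the genotypes asks how far the genes of this programme differ in their CD4 cells.

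The number 1 arrays of both genotypes were hybridised and scanned on 1 day and the number 2 arrays on another, so each same-numbered pair compares the genotypes within a day. In the header of wild type array 2 stand the letters CBA, with no explanation in the labels; were the strains of the groups to differ, strain and mutation cannot be told apart. Array medians lay between 30.8 and 40.4, and the lower quartile between 7.8 and 12.8. Of all probe sets, 13579 had a mean signal over the 4 arrays of at least 21.3 and were tested. The test called 144 of them, 1.06%, of which 91 (0.67%) were higher and 53 (0.39%) lower in sanroque. The median change over all probe sets tested was 0.015 on the log2 scale. CD4 cell markers were bright on every array. Cd4 itself read 585.9 and 570.2 in sanroque, against 533.3 and 613.5 in wild type, and none of the 6 measured genes of the CD4 T cell list passed the test. Every value is from bulk RNA, in which a larger or smaller share of cells of a type and more or less RNA per cell cannot be told apart.

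Il21, Cxcr5 and Sostdc1 rose in sanroque, by 1.82, 1.24 and 2.90 on the log2 scale, and no member was called lower. Without the filter on dim signal none of the 3 was called (limma, adjusted p = 0.168, 0.0601 and 0.0527 for Il21, Cxcr5 and Sostdc1). Of the 15 probe sets, 10 passed the filter on dim signal, for 8 genes. The call as higher was made for 3 of the 10 probe sets tested, against 0.67% of all probe sets tested; with the day as a block the call was made for 4, Cd200 being added, against 3.59%. Signal in both sanroque arrays exceeded that in both wild type arrays for 13 of the 15 probe sets, 9 of those past the filter and 4 of the 5 under it; this held for 21.2% of all probe sets. The exceptions were 1 probe set of Tox and that of Maf. The members were chosen with earlier results of these data known, and some probe sets share a gene. No common rise of the members is therefore read from these counts. Some probe sets passed the filter only through the sanroque arrays, namely 1 each of Il21, Sostdc1 and Ascl2, whose wild type means lay under 21.3, so nothing is read from the count among those past it.

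**Figure D1:**
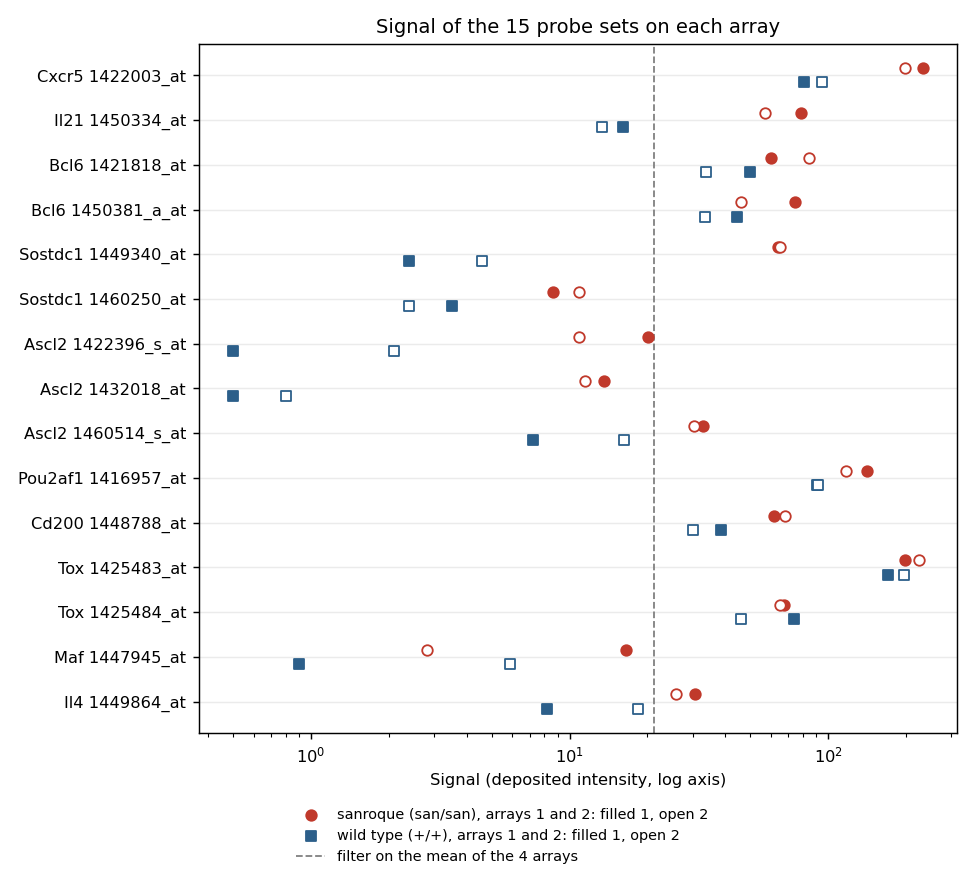
Deposited signal (log axis) of each of the 15 member probe sets, 1 row each, on the 2 sanroque arrays (circles) and the 2 wild type arrays (squares); filled symbols are number 1 arrays, open ones number 2, and the dashed line is the filter of 21.3 applied to the mean of the 4 arrays. The circles lie right of both squares in 13 rows and overlap them for Tox 1425484_at and Maf.

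The cytokine gene Il21, whose product drives germinal centre B cells and plasma cell formation, read 78.9 and 56.8 in sanroque, against 16.1 and 13.4 in wild type. Both sanroque values lay above both wild type values, with a gap of 40.7 signal units. The means were 67.85 ± 15.6 in sanroque and 14.75 ± 1.91 in wild type (SD, n = 2 each), a log2 change of 1.82 with a standard error of 0.34 (limma, adjusted p = 0.0307). In wild type the probe set stood at the 33.3 and 34.5 percentile of its array, and in sanroque at the 65.4 and 59.9 percentile. The call was lost without sanroque array 1 (adjusted p = 0.259), without sanroque array 2 (0.0649) and without the variance trend (0.0507), as well as without the filter. Where an array is left out, its genotype has 1 array, which is assumed to vary like the 2 of the other genotype.

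Il4, which directs B cells to class switching and is made by follicular helper and Th2 cells, was dim. It read 30.6 and 25.9 in sanroque, against 8.2 and 18.4 in wild type, with a mean over the arrays of 20.8 that lay just under the filter, so it was not tested. The sanroque arrays were higher in both pairs, by 1.37 on the log2 scale in pair 1 and by 0.39 in pair 2. The groups did not overlap, although the wild type arrays differed by more than the sanroque arrays did. Other cells that make Il4 were followed by their markers. The 6 measured genes of the basophil and mast cell list summed to 106.1 and 69.0 in sanroque, against 119.0 and 69.4 in wild type; the basophil protease gene Mcpt8 stayed at 1.9 and 8.9 in sanroque, against 3.4 and 1.2 in wild type. Zbtb16, the lineage factor of NKT cells, read 38.3 and 24.9 in sanroque, against 7.6 and 15.1 in wild type, with groups that did not overlap. Its change of 1.13 did not pass (limma, adjusted p = 0.49), and its wild type mean of 11.35 lay under the filter value. The part of these cells in the Il4 signal was not tested.

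Windows of 250 bases before to 50 after the start of transcription were at hand for 6 members (RefSeq, GRCm38.p6). Those of the cytokine genes and of Bcl6 are printed, because letters matching the cores of NFAT, STAT and BCL6 sites, factors that act in T cell activation, can be located in them. Each is written 5′ to 3′ on the strand of the gene. In the cytokine windows, capitals mark GGAAA on either strand, the core bound by NFAT. In the Bcl6 windows, capitals mark TTCNNNGAA, a palindrome that fits STAT factors and overlaps the motif of the BCL6 protein itself.
Il21, chr3:37232587-37232886, minus strand: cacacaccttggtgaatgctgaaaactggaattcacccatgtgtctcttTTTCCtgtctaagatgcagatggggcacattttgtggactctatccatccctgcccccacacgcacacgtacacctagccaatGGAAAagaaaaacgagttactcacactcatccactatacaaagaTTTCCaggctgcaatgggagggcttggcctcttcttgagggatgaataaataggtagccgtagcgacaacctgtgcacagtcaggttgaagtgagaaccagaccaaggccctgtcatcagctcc
Il4, upstream start, chr11:53618616-53618915, minus strand: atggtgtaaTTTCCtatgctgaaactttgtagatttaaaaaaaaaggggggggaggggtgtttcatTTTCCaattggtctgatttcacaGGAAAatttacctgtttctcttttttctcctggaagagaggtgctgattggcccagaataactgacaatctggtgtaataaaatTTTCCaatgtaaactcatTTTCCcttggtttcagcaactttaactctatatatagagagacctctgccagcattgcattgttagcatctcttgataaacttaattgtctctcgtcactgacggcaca
Il4, downstream start, chr11:53617289-53617588, minus strand: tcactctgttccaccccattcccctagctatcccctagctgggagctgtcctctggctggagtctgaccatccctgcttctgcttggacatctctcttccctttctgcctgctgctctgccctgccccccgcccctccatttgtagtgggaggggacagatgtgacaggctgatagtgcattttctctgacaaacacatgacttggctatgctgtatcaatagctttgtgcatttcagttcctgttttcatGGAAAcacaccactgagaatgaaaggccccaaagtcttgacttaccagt
Bcl6, upstream start, chr16:23988803-23989102, minus strand: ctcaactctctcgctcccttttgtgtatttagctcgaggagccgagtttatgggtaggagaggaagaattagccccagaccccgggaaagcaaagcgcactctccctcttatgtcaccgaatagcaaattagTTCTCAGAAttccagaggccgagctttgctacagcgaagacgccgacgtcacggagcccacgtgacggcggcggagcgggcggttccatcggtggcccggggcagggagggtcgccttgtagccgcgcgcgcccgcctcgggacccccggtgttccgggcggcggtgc
Bcl6, downstream start, chr16:23981234-23981533, minus strand: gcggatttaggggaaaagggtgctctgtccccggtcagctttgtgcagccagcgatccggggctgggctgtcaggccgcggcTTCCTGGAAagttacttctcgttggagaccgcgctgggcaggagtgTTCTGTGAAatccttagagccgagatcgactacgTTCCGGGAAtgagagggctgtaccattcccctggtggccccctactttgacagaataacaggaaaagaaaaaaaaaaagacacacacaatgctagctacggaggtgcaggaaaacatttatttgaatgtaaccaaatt
GGAAA occurred 3 times in the Il21 window, 5 times at the upstream start of Il4 and once at its downstream start, and 61.3% of the 32851 windows in the table hold it at least once. TTCNNNGAA occurred once at the upstream start of Bcl6 and 3 times at the downstream start, and once at the downstream start of Il4, where it is not capitalised and shares bases with GGAAA. It was in 3 of the 8 windows of members, against 8.3% of all windows. In the downstream window of Bcl6, 1 of the GGAAA matches shares bases with the first TTCNNNGAA match. Letters that match are a description of the sequence and not evidence of binding. TGANTCA, the AP-1 site, was in none of the 8 windows of members (7.81% of all windows), nor was the octamer ATGCAAAT, the site of the factors that Pou2af1 joins (1.74%), nor the TATA box letters TATAAA (13.6%). CANNTG, the E-box that proteins of the Ascl2 class bind, was in 7 of the 8 windows, against 72.3% of all windows; both strands were searched for every motif.

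Cxcr5, the receptor that draws T cells towards Cxcl13 in the follicle, read 232.8 and 197.6 in sanroque, against 80.5 and 94.5 in wild type. The groups were separated by 103.1 signal units. The mean was 215.2 ± 24.9 in sanroque and 87.5 ± 9.9 in wild type (SD, n = 2 each), a ratio of 2.46 and a log2 change of 1.24 with a standard error of 0.20 (limma, adjusted p = 0.0133). The change was 1.47 in pair 1 and 1.02 in pair 2. The call was lost without the filter (adjusted p = 0.0601) or the variance trend (0.132). With 1 array left out the adjusted p ran from 0.00373 to 0.048, in fits whose spread comes from the 2 arrays of a single genotype.

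Cd200, a surface glycoprotein whose receptor inhibits myeloid cells, read 61.9 and 68.3 in sanroque, against 38.6 and 30.1 in wild type. The groups did not overlap, and the means were 65.1 ± 4.53 and 34.35 ± 6.01 (SD, n = 2 each) in sanroque and wild type. The log2 change of 0.82 (95% interval 0.22 to 1.42) did not pass in the test over all probe sets (limma, adjusted p = 0.293); with the day as a block it did (adjusted p = 0.0326). The gene of its receptor, Cd200r1, had 58.1 and 75.7 in sanroque, against 80.9 and 66.3 in wild type, with overlapping groups and a change of -0.13 (adjusted p = 0.933).

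Sostdc1 encodes a secreted antagonist of BMP and Wnt signals. Its brighter probe set, 1449340_at, read 63.9 and 65.0 in sanroque, against 2.4 and 4.6 in wild type. Among all members it had the lowest wild type percentiles past the filter, 10.1 and 18.6, against 60.5 and 62.5 in sanroque. It passed the filter only through the sanroque arrays, with a wild type mean of 3.5, and without the filter it was not called (limma, adjusted p = 0.0527). The change of 2.90 (standard error 0.46, limma, adjusted p = 0.0134) was computed after 6 was added to each signal, which shrinks the change of dim probe sets: adding 1 gave 3.91 and adding 24 gave 1.69, so the size of the change is not settled. The second probe set, 1460250_at, read 8.6 and 10.9 in sanroque, against 3.5 and 2.4 in wild type, and lay under the filter with the same order of the groups. Leaving out sanroque array 1 (adjusted p = 0.089) or sanroque array 2 (0.102) ended the call of 1449340_at.

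**Figure D2:**
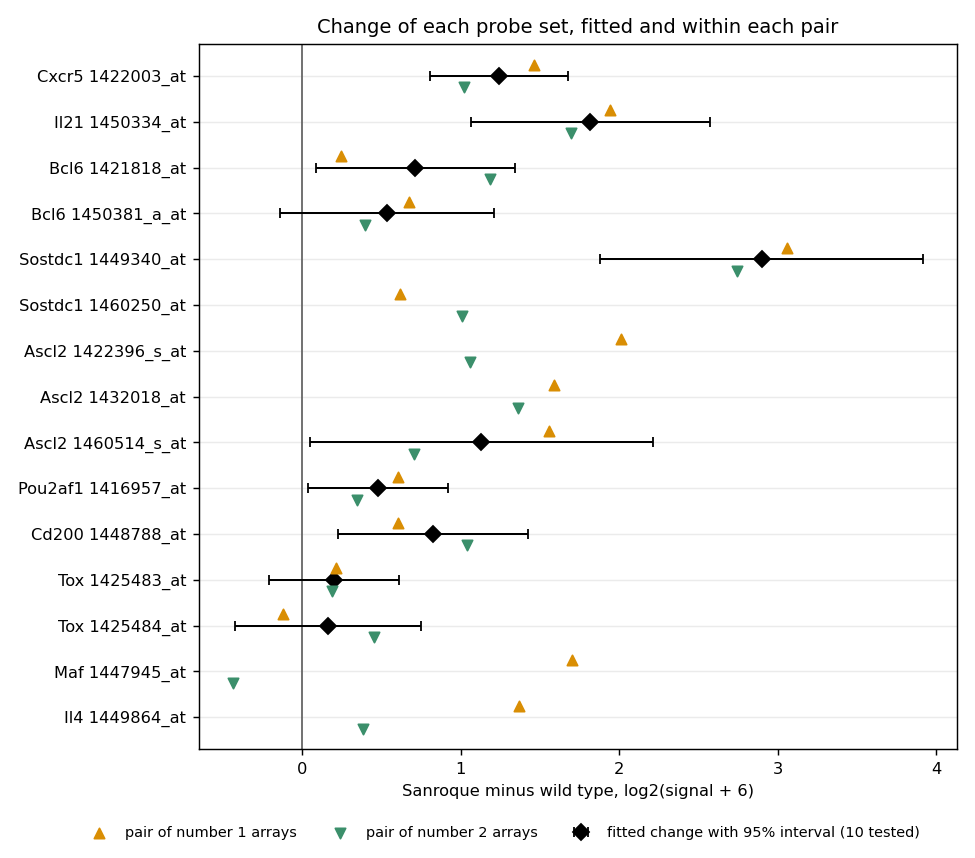
Change of each member probe set on the scale of log2(signal + 6), sanroque minus wild type: black diamonds with 95% intervals are the limma estimates of the 10 probe sets past the filter, upward triangles the pair of number 1 arrays and downward triangles the pair of number 2 arrays. Both triangles lie right of 0 in 13 rows, and the pairs take opposite signs for Tox 1425484_at (-0.12 and 0.45) and Maf (1.71 and -0.44).

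The transcriptional regulators differed among themselves, and none of their probe sets passed the test. Bcl6 probe set 1421818_at read 59.9 and 84.3 in sanroque, against 49.7 and 33.7 in wild type. Probe set 1450381_a_at read 74.6 and 45.9 in sanroque, against 44.6 and 33.4 in wild type. Neither overlapped between genotypes, but for 1450381_a_at the gap was only 1.3 signal units. The probe sets also ordered the sanroque arrays differently, the first reading higher on array 2 and the second on array 1. Their log2 changes were 0.71 (95% interval 0.09 to 1.34, limma, adjusted p = 0.423) and 0.53 (-0.14 to 1.21, adjusted p = 0.64). Within the pairs the first differed by 0.24 and 1.19, and the second by 0.67 and 0.40.

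Ascl2, a basic helix-loop-helix factor that can induce Cxcr5, was low on all arrays and higher in sanroque by each of its 3 probe sets. Probe set 1460514_s_at read 32.8 and 30.2 in sanroque, against 7.2 and 16.2 in wild type. Probe set 1422396_s_at read 20.2 and 10.9 in sanroque, against 0.5 and 2.1 in wild type. Probe set 1432018_at read 13.6 and 11.5 in sanroque, against 0.5 and 0.8 in wild type. In wild type the last of these stood at the 1.14 and 3.14 percentile of its arrays, the floor of the table, and in sanroque at the 26.0 and 30.1 percentile. Only 1460514_s_at reached the filter, with a mean of 21.6, and its change of 1.13 (95% interval 0.05 to 2.21) did not pass (limma, adjusted p = 0.481). These probe sets target the same gene and are not independent of each other.

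Pou2af1, a coactivator of octamer-binding factors that is best known from B cells, read 140.8 and 117.8 in sanroque, against 90.6 and 91.2 in wild type. The wild type arrays nearly coincided and both sanroque arrays lay above them, with a log2 change of 0.48 (95% interval 0.03 to 0.92) that did not pass (limma, adjusted p = 0.46). Pou2f2, an octamer factor that Pou2af1 can join, read 94.3 and 63.5 in sanroque, against 36.5 and 26.8 in wild type, with a change of 1.16 whose adjusted p was 0.115 in the limma test and 0.00117 with the day as a block; its second probe set had 0.79 and was called by neither (0.609 and 0.144).

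Tox, an HMG-box factor of T cell development, differed least. Probe set 1425483_at read 198.0 and 224.3 in sanroque, against 170.0 and 195.9 in wild type. Probe set 1425484_at read 67.3 and 65.1 in sanroque, against 73.7 and 46.0 in wild type, with overlapping groups. The changes were 0.20 (95% interval -0.21 to 0.61, limma, adjusted p = 0.825) and 0.17 (-0.42 to 0.75, adjusted p = 0.925); a change above 0.61 lay outside the first interval and one above 0.75 outside the second. Maf, the factor c-Maf that activates Il4 and Il21, was read by 1 probe set near the floor of the table. It had 16.5 and 2.8 in sanroque, against 0.9 and 5.9 in wild type, and sanroque was higher in pair 1 and lower in pair 2, so no direction can be given for Maf.

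Several of these genes are also expressed by B cells, so B cell markers were read on the same arrays. The 11 measured genes of the B cell list summed to a signal of 1442.5 and 1545.7 in sanroque, against 1502.3 and 1547.9 in wild type, and 0 of the 9 past the filter passed the test in limma. Cd79a, part of the B cell receptor, read 205.9 and 198.0 in sanroque, against 231.3 and 244.1 in wild type, so B cell transcripts were present in both genotypes. Pax5, the B lineage factor, lay under the filter at 4.5 and 11.9 in sanroque, against 5.2 and 3.8 in wild type. Cr2, a complement receptor of B cells, did not pass (limma, adjusted p = 0.216) and was called lower with the day as a block (0.0127), at 70.1 and 96.7 in sanroque, against 152.4 and 130.5 in wild type. Cd22 and Cd72 went the other way, higher in sanroque by 0.38 and 0.23 on the log2 scale, with groups that did not overlap. Neither passed (limma, adjusted p = 0.516 and 0.811). The median change of the 9 genes past the filter was -0.035. Of germinal centre B cell markers only Gcsam and Mybl1 were measured, both under the filter, and they summed to 20.7 and 23.5 in sanroque, against 15.8 and 9.2 in wild type. Of the neutrophil and macrophage list, 4 of the 6 genes past the filter were called higher (Ngp, Lyz2, S100a8 and S100a9), against 0.67% of all probe sets tested. Csf1r and Cd68 had 0.50 and 0.19 and did not pass (limma, adjusted p = 0.369 and 0.897), and Itgam lay under the filter. The 7 measured genes summed to 2443.6 and 2508.7 in sanroque, against 1090.2 and 1186.9 in wild type. The list was chosen with earlier results of these data known, so nothing is read from the count called. The part of B cells, neutrophils and macrophages in the members' changes was not tested.

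**Figure D3:**
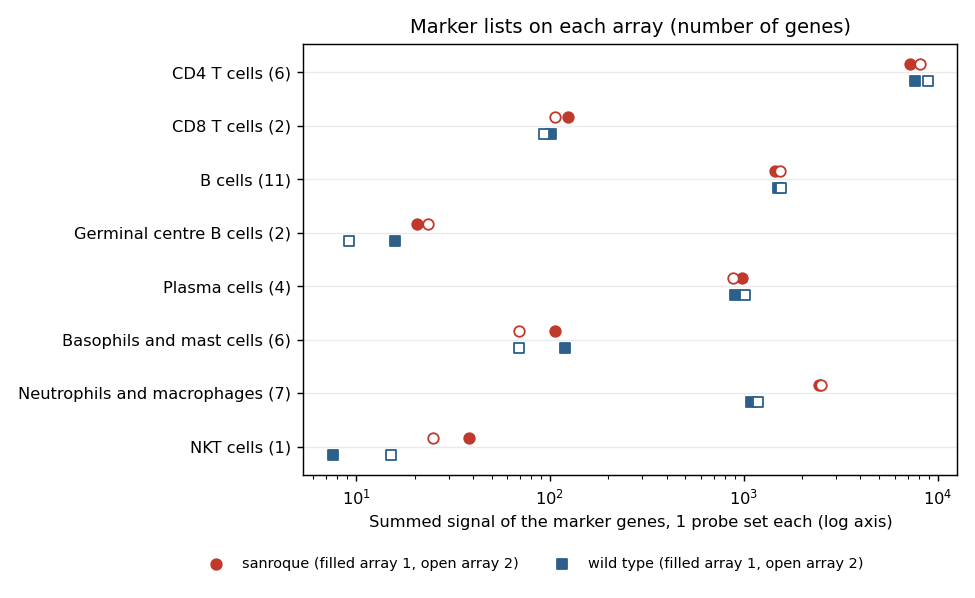
Summed signal (log axis) of the marker genes of 8 cell types, 1 probe set per gene, on the 2 sanroque arrays (circles) and the 2 wild type arrays (squares), with the number of genes measured in brackets. The B cell sums of the genotypes overlap, and the neutrophil and macrophage sums are 2443.6 and 2508.7 in sanroque, against 1090.2 and 1186.9 in wild type.

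Beyond the members, 53 further genes of the follicular helper programme were listed by role, and 41 of them had a probe set past the filter. Of these 3 rose (Icos, Pdcd1 and Nfatc1), 1 fell (Lef1) and 37 were not called, where 0.67% of all probe sets tested were called higher and 0.39% lower. With the day as a block 12 were called higher and 3 lower, against 3.59% and 2.68% of all probe sets. The median change of the 41 genes, 1 probe set each, was 0.26, against 0.015 over all probe sets tested. The list was chosen with earlier results of these data known, so no shift of the programme is read from this contrast. Among 12 surface genes, the costimulatory receptor gene Icos read 538.8 and 417.6 in sanroque, against 149.0 and 105.6 in wild type (log2 change 1.87, limma, adjusted p = 0.00143). Without the variance trend Icos was not called (adjusted p = 0.0635); its second probe set had 1.48 (0.0143). The inhibitory receptor gene Pdcd1 read 180.1 and 171.0 in sanroque, against 31.5 and 41.0 in wild type (2.11, adjusted p = 0.000797). The SLAM receptor gene Cd84 and the ligand gene Tnfsf8 had changes of 0.76 and 0.61 and were called with the block alone (adjusted p = 0.0019 and 0.0379).

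No further cytokine gene was called. None of the 7 cytokine and cytokine receptor genes past the filter passed the test, and 5 further cytokine genes, Il2, Il5, Il6, Il10 and Il13, lay under the filter with signals between 1.6 and 21.9. Ifng had a change of -0.94 (limma, adjusted p = 0.38), with 22.5 and 19.9 in sanroque, against 37.9 and 56.2 in wild type. The interleukin 2 receptor genes Il2rb and Il2ra, whose signal opposes Bcl6, had changes of 0.94 and 0.85 and were called with the block (adjusted p = 0.00136 and 0.02); a second Il2ra probe set had 0.07. The receptor for interleukin 21 itself, Il21r, read 150.9 and 172.0 in sanroque, against 115.8 and 147.5 in wild type (0.29, adjusted p = 0.728).

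All 4 measured homing receptor genes other than Cxcr5 had negative changes, and none passed the test. Ccr7, which keeps T cells in the T cell zone and opposes Cxcr5 in placing them, read 744.9 and 888.6 in sanroque, against 1056.1 and 1205.8 in wild type. Its change was -0.47, with a limma adjusted p of 0.4, and of 0.0375 with the day as a block. S1pr1, the receptor for exit from lymphoid tissue, had -0.22 and Cxcr4 and Selplg had -0.17 and -0.03. The groups of Cxcr4 and of Selplg overlapped. Their pairs took opposite signs, -0.38 and 0.05 for Cxcr4 and -0.10 and 0.04 for Selplg. Of all probe sets tested, 52.1% had a positive change, so no common fall of homing receptors is read from the signs.

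The factors were listed as favouring or opposing the programme, a grouping that was not tested here. Among the 11 listed as favouring it, Nfatc1, an effector of calcium signalling, read 336.4 and 352.1 in sanroque, against 188.8 and 150.9 in wild type (1.00, limma, adjusted p = 0.0298). Its second probe set had 0.55 and did not pass (adjusted p = 0.334). Lef1, a factor of naive and early follicular helper cells, went the other way and read 247.4 and 298.3 in sanroque, against 516.5 and 674.1 in wild type (-1.10, adjusted p = 0.0231). With each array centred on its median neither passed (adjusted p = 0.192 for Nfatc1 and 0.078 for Lef1), nor without the filter (0.0872 each) or the variance trend (0.21 each), nor without sanroque array 1 (0.0608 and 0.1); Nfatc1 also failed without sanroque array 2 (0.102) or wild type array 2 (0.0787). Batf, Stat3 and Id3 had changes of 0.77, 0.48 and 0.63 and were called with the block (limma, adjusted p = 0.00217, 0.045 and 0.0264). No favouring role is read from the place of Id3 on this list. Of the other Stat3 probe sets 1 was called with the block (0.67, adjusted p = 0.00433) and 1 was not (0.10, 0.885). Of the 7 factors listed as opposing it none passed. Prdm1, the antagonist of Bcl6, had a mean signal of 67.2 in sanroque and 45.1 in wild type, with groups that did not overlap (0.52, adjusted p = 0.569). Klf2, which restrains follicular helper differentiation, had -0.39 (adjusted p = 0.497), Id2 had -0.56 (0.301, and 0.0195 with the block), and Stat5a had 0.62 (0.246, and 0.025 with the block). The second probe set of Stat5a had 0.088 and was not called with the block (adjusted p = 0.868), nor were the other 2 of Id2, at -0.23 and -0.66 (0.473 and 0.0688). Foxp1 had -0.10 by its brightest probe set (limma, adjusted p = 0.927, and 0.778 with the block). Its other 6 probe sets past the filter had -0.78, -0.78, -0.61, -0.50, -0.44 and -0.09. None of these passed the test without the block. With it their limma adjusted p was 0.00139, 0.00511, 0.019, 0.0566, 0.0601 and 0.816.

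**Figure D4:**
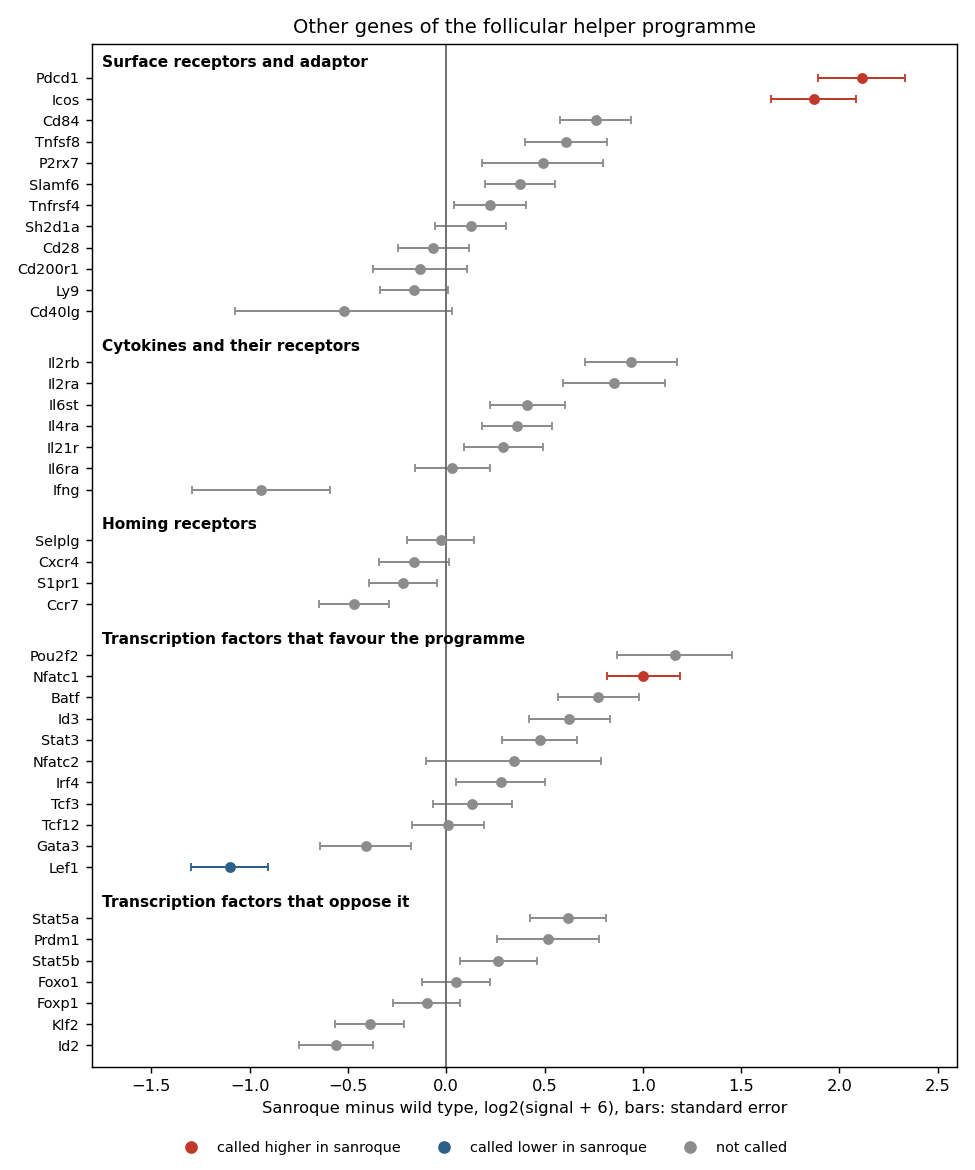
Change of the 41 measured genes of the wider programme on the scale of log2(signal + 6), sanroque minus wild type, with standard errors, ordered within 5 roles; red marks genes called higher, blue called lower and grey not called. Pdcd1, Icos and Nfatc1 are red and Lef1 is blue. The 4 homing receptor genes all lie left of 0, though the groups of Cxcr4 and Selplg overlapped.

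The genes with the most similar pattern over the 4 arrays were found by the Euclidean distance of log2 values centred on each probe set's own mean, over 12424 probe sets with 1 symbol. Nearest to Cxcr5 were Egr2, a factor induced by antigen receptor signals (distance 0.119), the calprotectin gene S100a9 (0.13) and the kinesin gene Kif22 (0.137). Nearest to Il21 were Map7 (0.167), which encodes a microtubule-binding protein, Uri1 (0.198), and Icos (0.215). Nearest to the brighter Bcl6 probe set were the protease gene Lgmn (0.121), the interferon signalling gene Stat2 (0.138) and the chaperone gene Dnaja2 (0.15). The 4 arrays leave many probe sets with similar profiles, and these distances are a description.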

How the data were processed

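CD4 cell RNA was measured on 2 sanroque and 2 wild type MOE430A arrays. The deposited intensity values, linear and never negative, were used as given; how the authors summarised the probes is not stated. Trimmed means of 99.59 to 99.97 per array show scaling before deposit. No detection calls were used. Signals were analysed here as log2(signal + 6) of the deposited values; 64 controls, and probe sets whose mean fell under the 40th percentile (21.3), were not tested, and dim members were given by value. Symbols came from the platform annotation, updated by gene identifier.

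Genotypes were compared by limma 3.58.1 in R 4.3.3 (lmFit, eBayes with trend, two-sided, no covariate), with Benjamini-Hochberg adjustment over 13579 probe sets and a threshold of 0.05. Same-numbered arrays shared a hybridisation day per the file headers, so numbers pair the arrays; their deviations from the group mean correlated with 0.392. On simulated data for this comparison (10 sets of 13579 probe sets, of which 200 were changed) the fit found 0.468% of log2 changes of 0.5, 20.8% of those of 1 and 77.4% of those of 2, with 4.01% of calls false. The simulated noise was drawn from the spread that the fit itself had estimated, independently for each array and with no day effect. These shares show how the fit behaves under its own assumptions and need not hold for the real arrays.

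The members and lists were chosen with earlier results of these data known. For a listed gene the brightest tested probe set stood in, and for a marker the brightest of all. The rule for names took all members, listed genes that were called, Icos and Pdcd1, and the 3 nearest patterns to Cxcr5, Il21 and Bcl6; other listed genes and markers were named after their values were seen. Alternatives were other scalings, pseudocounts of 1 and 24, other filters, no variance trend, blocks, and each array left out. Figures were drawn with matplotlib 3.10.9.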

Additional observations from a re-analysis of the deposited data

How the results depend on the processing

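Only the called probe sets of Cxcr5, Il21 and Sostdc1, with 13, 12 and 12 alternatives, could lose a call. The change of each of the 10 tested member probe sets was computed under 12 or 13 alternatives, 124 values in all. Of these, 113 kept their direction and side of the threshold, 9 lost the call, 1 gained it (Cd200 with the replicate block) and 1 turned: Tox 1425484_at had -0.14 without wild type array 2, and 0.47 at most with 1 array left out (without wild type array 1). The count of 3 member probe sets called became 0 without the filter (limma; Cxcr5, Il21 and Sostdc1 had adjusted p of 0.0601, 0.168 and 0.0527), 1 with the filter at the 60th percentile, which removes Il21 and Sostdc1 from the test, and 1 without the variance trend, where Cxcr5 (0.132) and Il21 (0.0507) were lost and the cause was not tested. Leaving out either sanroque array lost the calls of Il21 and Sostdc1, and leaving out either wild type array did not. Each of these fits had 1 array in a genotype, and the cause of the losses was not tested. The changes of Cxcr5, Il21 and Sostdc1 stayed positive in all of these fits. The replicate block, which pairs the arrays by day, gave 4 member probe sets called. Of the other follicular helper genes, 4 were called in the main setting, 2 after median centring, 2 with no filter, 1 with no trend, and 15 with the replicate block; leaving out 1 array gave 2 to 7, with 7 without wild type array 1 and 2 without sanroque array 1. Over all probe sets the count of 144 became 852 with the replicate block, 56 with no filter and 47 with no trend, and ranged from 105 to 356 with 1 array left out, 356 without wild type array 1. Precision is limited by there being 2 arrays a genotype, and probe sets near the floor, those of Maf, Ascl2 and Sostdc1 1460250_at, give no reliable size of change.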
